A study of Mus musculus with 35 samples.

Results

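The G1 cyclins, their kinases and the inhibitors of these kinases were followed in CD45+ microglia through postnatal development. The set holds 10 genes chosen by name: the D-type cyclins Ccnd1, Ccnd2 and Ccnd3, the E-type cyclins Ccne1 and Ccne2, the kinases Cdk4 and Cdk6, and the inhibitors Cdkn1a, Cdkn1b and Cdkn2c. They are 10 of the 55401 genes in the count table, and all 10 were among the 17612 genes that passed the filter on low counts (at least 0.5 CPM, the count scaled to the library's size, in no fewer than 5 mice). Microglia were panned from whole brain of wild-type C57BL/6 mice of both sexes on dishes coated with an antibody to CD45, a surface protein of blood-derived and microglial cells, and each mouse gave 1 bulk mRNA library. The groups were postnatal day 6 (P6; 4 females and 6 males), P15 (6 females and 6 males) and 8 weeks (6 females and 6 males), with no treatment, transgene or deletion in any group. One further P6 female (number 6) is left out of these 34 mice and its values are given separately. The study removed 1 mouse as an outlier on a multidimensional scaling plot. Its methods do not name that mouse, which is taken here to be P6 female 6. Each library held between 23316107 and 38965078 counted fragments, so that 3 counts, taken as the floor, corresponded to 0.0770 to 0.129 CPM.

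Passage through G1 is driven by D-type cyclins bound to Cdk4 or Cdk6, which phosphorylate the retinoblastoma protein and so free E2F transcription factors. E2F factors in turn switch on the E-type cyclins, which partner Cdk2 and carry the cell into S phase. The products of Cdkn1a (p21) and Cdkn1b (p27) bind cyclin-kinase complexes, whereas that of Cdkn2c (p18) binds Cdk4 and Cdk6 themselves. Microglia divide in the brain after birth and divide rarely in the adult.

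The libraries carried a strong microglial signature, and it was stronger at the later ages. The mean of 6 microglial markers (Tmem119 and P2ry12 among them) lay between 9.73 and 10.6 log2 CPM at P6, between 10.9 and 11.9 at P15 and between 11.3 and 11.7 at 8 weeks. Tmem119 itself went from 306 ± 68.7 CPM (SD, n = 10 mice) at P6 to 2572 ± 518 CPM (n = 12) at 8 weeks. Markers of other brain cells were present as well, and no marker list had a gene at 0 in every mouse of an age. Of these lists, 9 neural progenitor and immature neuron markers fell most steeply, from 5.92 log2 CPM at P6 (4.54 to 6.58) to 3.86 at P15 (2.12 to 4.98) and 1.62 at 8 weeks (0.882 to 2.43), and all 9 were called lower in each of the 3 age comparisons. Dcx, the doublecortin gene of migrating neuroblasts, went from 242 ± 106 CPM at P6 to 3.13 ± 1.92 CPM at 8 weeks. Oligodendrocyte progenitor markers (7 genes) averaged 5.62, 4.93 and 3.45 log2 CPM at the same ages. Neuron markers (6 genes) averaged 5.77, 5.47 and 3.94 and fibroblast markers (5 genes) 4.39, 3.83 and 2.21. Other lists had higher means at the later ages, with 4.53, 7.2 and 6.25 log2 CPM for mature oligodendrocytes, 6.9, 8.36 and 8.14 for astrocytes and 0.252, 1.07 and 2.09 for lymphocytes and neutrophils. In bulk RNA of this kind, fewer cells of a type and less RNA per cell cannot be told apart.

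A pair of libraries stood apart. P6 female 6, left out here, had the lowest microglial marker mean (8.6 log2 CPM) beside high neuron (7.53) and oligodendrocyte progenitor (7.38) means. P15 male 1 had the lowest microglial (10.9) and macrophage (3.99) and the highest oligodendrocyte progenitor (6.62) and mature oligodendrocyte (8.69) means of the P15 mice. Results that rest on it are given with and without it.

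Promoter sequence is shown for the members with the largest falls that had a window in the reference table, and for Cdkn1a, whose induction by p53 is its best known control. Of the 10 members, 7 were matched to 10 RefSeq windows on GRCm38.p6, each running from 250 bases before to 50 bases after an annotated start, and Ccnd1, Ccnd2 and Ccne2 were not matched. Capitals mark matches, on either strand, to GGGCGG (the core of the Sp1 site), CACGTG (the E-box bound by Myc and related factors), TTTNNCGC (an E2F-type site) and the p53 response element, a 20-base pattern in which 1 mismatch was allowed. Only TTTNNCGC was chosen before the windows were viewed, and the other motifs and the allowed mismatch were chosen after.
Cdkn2c, chr4:109666707-109667006, minus strand: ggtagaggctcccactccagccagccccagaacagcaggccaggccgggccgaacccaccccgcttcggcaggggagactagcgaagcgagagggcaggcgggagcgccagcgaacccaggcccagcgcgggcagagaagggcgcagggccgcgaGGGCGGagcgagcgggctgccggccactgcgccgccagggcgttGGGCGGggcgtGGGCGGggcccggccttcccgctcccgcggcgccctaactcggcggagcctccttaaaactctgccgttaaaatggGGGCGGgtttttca
Ccne1, chr7:38107441-38107740, minus strand: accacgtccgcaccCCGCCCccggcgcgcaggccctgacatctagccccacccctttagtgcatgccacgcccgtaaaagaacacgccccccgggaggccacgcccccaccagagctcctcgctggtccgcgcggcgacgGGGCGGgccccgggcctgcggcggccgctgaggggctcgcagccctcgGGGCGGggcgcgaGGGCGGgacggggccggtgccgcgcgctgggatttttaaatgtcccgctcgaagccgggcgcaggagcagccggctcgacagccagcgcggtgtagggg
Cdk4, chr10:127063285-127063584, plus strand: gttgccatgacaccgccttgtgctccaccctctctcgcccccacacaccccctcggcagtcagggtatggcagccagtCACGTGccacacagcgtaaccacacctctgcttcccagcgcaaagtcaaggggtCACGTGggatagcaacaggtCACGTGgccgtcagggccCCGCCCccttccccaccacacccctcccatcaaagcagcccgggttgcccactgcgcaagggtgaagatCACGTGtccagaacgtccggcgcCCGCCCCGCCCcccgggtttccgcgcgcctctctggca
Cdkn1a, upstream start, chr17:29090729-29091028, plus strand: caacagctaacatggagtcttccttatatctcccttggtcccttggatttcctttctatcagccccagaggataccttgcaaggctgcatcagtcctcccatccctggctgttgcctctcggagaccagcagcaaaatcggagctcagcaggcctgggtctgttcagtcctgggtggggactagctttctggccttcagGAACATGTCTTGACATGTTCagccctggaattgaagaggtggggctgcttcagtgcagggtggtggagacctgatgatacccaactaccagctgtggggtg

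The Cdkn2c and Ccne1 windows shown each held 4 matches to GGGCGG, a number reached by 5.49% of the 32851 windows in the table (35.7% held at least 1), and their GC content was 73.3% and 76% against a median of 52.7% over all windows. A further Cdkn2c window, at chr4:109665323-109665622, held no GGGCGG and 1 CACGTG, with a GC content of 44%. In Cdk4 there were 4 copies of CACGTG, found in 0.0244% of all windows (8 windows), beside 3 matches to GGGCGG of which some overlap. At least 1 CACGTG lay in 7.15% of all windows. The upstream Cdkn1a window held 1 match to the p53 response element, a pattern present in 0.0883% of all windows (29 windows). A further Cdkn1a window, at chr17:29093519-29093818, held no p53 response element and 2 matches to GGGCGG. TTTNNCGC was present in 5.17% of all windows and in 1 of the 10 member windows, that of Cdk6 (chr5:3343643-3343942), so these letters did not occur in the windows of Ccne1 or Cdkn2c. A match describes the sequence only, and binding was not measured.

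Between P6 and 8 weeks, 7 of the 10 G1 genes declined, and Ccnd1 was not among them. Both E-type cyclins, Ccnd2, Cdk4 and Cdkn2c fell by 4-fold or more, Cdkn1a and Cdk6 fell by less, and Ccnd1 and Cdkn1b were not called. Ccnd3 was slightly higher. In counts, 7 of the 10 members were lower and 1 higher (edgeR quasi-likelihood test, FDR below 0.05), where 36.6% of all 17612 genes were lower and 37.8% higher (74.4% called in all). Past a 2-fold threshold 5 members were lower, against 12.4% of all genes. Without TMM scaling the calls over all genes were 5676 higher and 7330 lower from P6 to 8 weeks, in place of 6654 and 6443, and the member counts were 0 higher and 8 lower. The median log2 fold change (log2FC) of the members was -1.47 and that of all genes tested was 0.038.

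Members were called lower both before and after P15. From P6 to P15, 7 members were lower and 1 higher, where 31.4% of all genes were lower and 30.4% higher (61.8% in all), and 5 members were lower past 2-fold, where 4.85% of all genes were. From P15 to 8 weeks, 6 members were lower and 1 higher, beside 23.9% and 24% of all genes (47.9% in all), and 3 members were lower past 2-fold, beside 3.07% of all genes. The members' median log2FC was -1.29 for the first interval and -0.44 for the second. Without TMM scaling all genes split from P6 to P15 into 4352 higher and 6697 lower, in place of 5347 and 5535, and 9 members were lower and 1 higher. These 3 comparisons share mice and are not independent of each other.

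**Figure D1:**
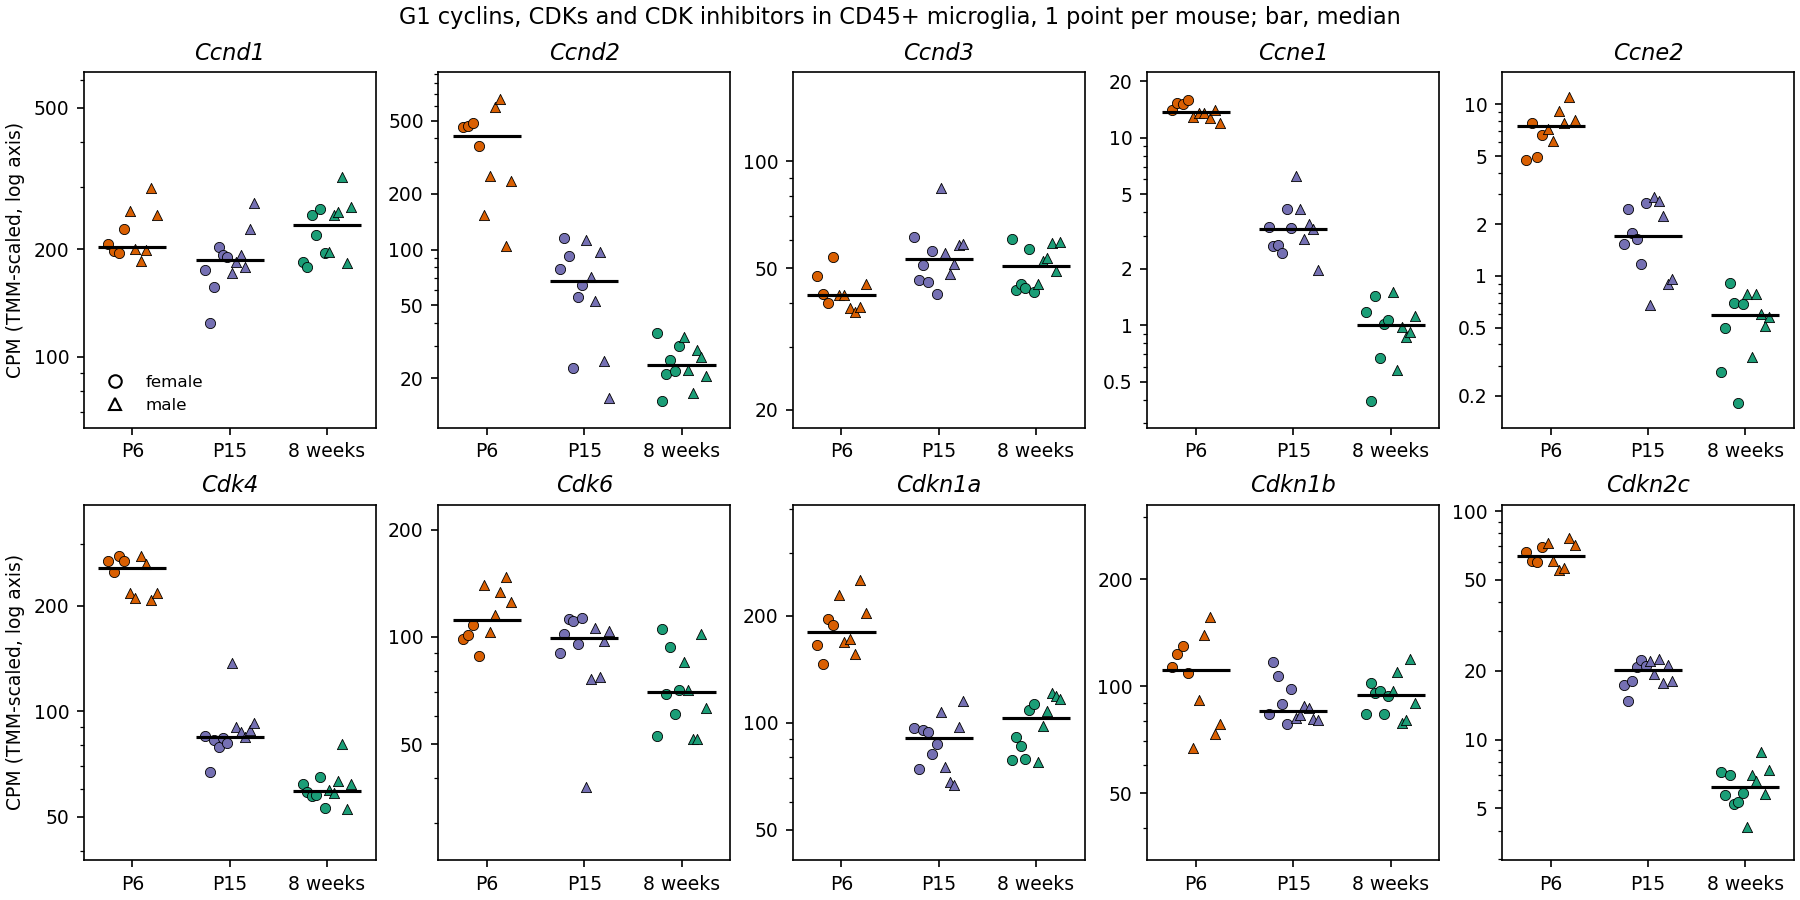
Level of each member in each of 34 mice at P6, P15 and 8 weeks (CPM on TMM-scaled library sizes, log axis; circles, females; triangles, males; bars, medians). Ccne1 and Cdkn2c separate all 3 ages with no overlap, whereas the Ccnd1, Ccnd3 and Cdkn1b points of the 3 ages overlap.

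Among the D-type cyclins, Ccnd2 fell, and Ccnd1 was not called different between P6 and 8 weeks. Both results changed in a fit with neural marker levels as a covariate, in which the change from P6 to 8 weeks was -0.51 for Ccnd2 (FDR = 0.269) and -0.85 for Ccnd1 (FDR = 8.66e-05), and that of Ccnd2 from P15 to 8 weeks turned to 0.73 (FDR = 0.0219). Ccnd2 (ENSMUSG00000000184, chr6:127125162-127152193, minus strand) ranged from 105 to 653 CPM at P6 with a median of 412. It ranged from 15.7 to 116 CPM at P15 (median 67.9) and from 15.1 to 35.4 CPM at 8 weeks (median 23.8). Every P6 mouse was above every 8-week mouse, but P6 overlapped P15 and P15 overlapped 8 weeks. The log2FC was -2.52 ± 0.307 (SE) from P6 to P15 (FDR = 2.21e-08), -1.44 ± 0.290 from P15 to 8 weeks (FDR = 0.000169) and -3.96 ± 0.325 from P6 to 8 weeks (FDR = 2.09e-12), the last a 15.6-fold fall. No member varied more among mice of 1 age at P6 or P15, with a coefficient of variation of 49.3% and 51.2%, and at P6 the spread was wider in the males. The 4 P6 females were at 365, 460, 469 and 488 CPM, whereas the 6 males ran from 105 to 653 CPM with a median of 243.

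Ccnd1 (ENSMUSG00000070348, chr7:144929931-144939925, minus strand), the D-type cyclin that growth factors induce, ranged from 186 to 298 CPM at P6 (median 203), 124 to 271 CPM at P15 (median 187) and 178 to 320 CPM at 8 weeks (median 235). All 3 ages overlapped. The change from P6 to 8 weeks was 0.07 ± 0.107 (FDR = 0.587), with a 95% interval of -0.152 to 0.282, and it was -0.08 without TMM scaling. Its level was higher at 8 weeks than at P15 by 0.28 (FDR = 0.0216, 95% interval 0.077 to 0.486), but without P15 male 1 the difference was 0.23 (FDR = 0.0676). The lower P15 level, -0.22 ± 0.106 against P6, missed the threshold (FDR = 0.0774), although it passed without TMM scaling (-0.35, FDR = 0.000244), under which the median of all genes was -0.140.

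Ccnd3 (ENSMUSG00000034165, chr17:47505051-47599691, plus strand), a D-type cyclin prominent in blood cells, ranged from 37.7 to 54 CPM at P6 (median 42.2), 42.3 to 84.1 CPM at P15 (median 53.3) and 42.9 to 60.6 CPM at 8 weeks (median 50.8). The ages overlapped. It was higher at P15 than at P6 by 0.34 ± 0.088 (FDR = 0.00148), and by 0.27 (FDR = 0.00379) without P15 male 1, the highest mouse. All 5 erythroid markers were also higher at P15 than at P6 (summed level 1189 to 4628 CPM at P6 and 3344 to 8422 CPM at P15). So were 7 of 12 lymphocyte and neutrophil markers (35.7 to 67.7 CPM and 37.3 to 112 CPM). From P15 to 8 weeks, an interval in which Ccnd3 was not called, all 5 erythroid markers were lower. In that interval 8 of the 12 lymphocyte and neutrophil markers were higher and 2 lower. Around the age and sex means Ccnd3 had r = 0.50 with the erythroid and 0.27 with the lymphocyte and neutrophil means over 34 mice (0.52 and 0.31 without P15 male 1). With oligodendrocyte progenitor markers r was 0.45 (0.25 without that mouse) and with mature oligodendrocyte markers, all 6 of which were higher at P15, it was 0.14 (-0.09). The part of these cells in the rise was not tested. The rise at 8 weeks over P6, 0.23 ± 0.088 (FDR = 0.0184), was not called without TMM scaling (0.09, FDR = 0.362), without P6 female 2 (0.17, FDR = 0.0959) or without P6 female 3 (0.16, FDR = 0.114). Between P15 and 8 weeks the change was -0.10 ± 0.083 (FDR = 0.305). A processed pseudogene, Ccnd3-ps on chromosome 4, may share reads with this gene.

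The make-up of the D-type cyclins changed with age. Levels of different genes are compared per kilobase of exon (RPKM), and shares within a family are a description with no test. Ccnd1 made up 52.9% ± 15.1 of the summed D-type RPKM at P6 (SD, n = 10 mice), 74.6% ± 8.62 at P15 (n = 12) and 85% ± 2.7 at 8 weeks (n = 12). Over the same ages the share of Ccnd2 went from 41.7% ± 15.8 through 13.7% ± 7.58 to 4.73% ± 1.59. Ccnd3 held 5.43%, 11.7% and 10.3%. In 1 P6 mouse, male 5, Ccnd1 already held 80.2%, and this mouse had the lowest progenitor marker mean of its age. The P6 order depended on the unit. In raw counts, which favour the longer Ccnd2 and Ccnd3, Ccnd2 led at P6 with 55.3% against 37.6% for Ccnd1. By raw counts Ccnd1 held 60.9% at P15 and 74.9% at 8 weeks, and Ccnd2 held 21.5% and 8.27%. The raw count share of Ccnd3 was 7.07%, 17.5% and 16.8% at the 3 ages.

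The level of Ccnd2 followed the markers of neural progenitors and immature neurons, mouse by mouse, and the level of Ccnd1 ran against them. Because 3 P15 mice lay apart on these markers (2.12 to 2.79 log2 CPM, against 3.83 to 4.98 in the other 9), the P15 values are over 9 mice. For Ccnd2, Pearson's r with the marker mean was 0.96 at P6 (n = 10, permutation p = 9e-05, adjusted over 30 relations 0.0013; Spearman's rho 0.92, p = 0.00061, adjusted 0.0061). It was 0.94 at P15 (n = 9, exact permutation p = 0.0004, adjusted 0.003; rho 0.97, p = 0.00017, adjusted 0.0025) and 0.78 at 8 weeks (n = 12, permutation p = 0.0032, adjusted 0.011; rho 0.70, p = 0.014, adjusted 0.054). Without the 2 mice farthest from the median marker level, r was 0.88, 0.87 and 0.60. The 3 P15 mice that lay apart had the lowest Ccnd2 levels of their age, 15.7, 22.8 and 25 CPM, and the highest Ccnd1 levels, 271, 203 and 228 CPM.

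For Ccnd1 the relation was inverse at P6 (r = -0.91, n = 10, permutation p = 0.0013, adjusted 0.0063; rho -0.81, p = 0.0072, adjusted 0.031) and at P15 (r = -0.83, n = 9, exact permutation p = 8e-05, adjusted 0.0013; rho -0.97, p = 0.00017, adjusted 0.0025). At 8 weeks it was not called (r = -0.47, n = 12, permutation p = 0.13, adjusted 0.29; rho -0.37, p = 0.24, adjusted 0.51). Leaving out the 2 farthest mice gave r of -0.67, -0.98 and -0.26. Ccnd1 and Ccnd2 ran against each other over the 34 mice (r = -0.70 between deviations from the age and sex means, a description), and so did Ccnd2 and the microglial marker mean (r = -0.89). Ccnd1 and the microglial marker mean ran together (r = 0.80). Without P15 male 1 these values were -0.68, -0.89 and 0.84. Ccnd2 also ran with astrocyte (0.74), neuron (0.72), oligodendrocyte progenitor (0.65) and fibroblast (0.58) markers, and Ccnd1 against astrocyte (-0.67) and neuron (-0.66) markers, so the relation was not limited to the progenitor list, with which r was 0.94 and -0.77. Levels in 1 library share its depth and its mix of cells, so none of these relations places either cyclin in a cell type.

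A fit that also held the mean of the neuron and of the progenitor and immature neuron markers was added after the data were seen. In it the fall of Ccnd2 from P6 to P15, ages whose marker levels overlap only in part, was -1.23 (FDR = 7.02e-06), against -2.52 without the covariate. Its fall from P6 to 8 weeks was not called, and its change from P15 to 8 weeks was reversed, as given above. Ccnd1 was called lower at P15 than at P6 (-0.61, FDR = 2.74e-06), and its change from P15 to 8 weeks was -0.24 (FDR = 0.0806), reversed in sign. The falls from P6 to 8 weeks were also called in this fit for Ccne1 (-2.93, FDR = 2.94e-08), Ccne2 (-3.03, FDR = 4.66e-05), Cdk4 (-1.85, FDR = 4.98e-10) and Cdkn2c (-3.67, FDR = 7.78e-15). Those of Cdk6 (-1.37, FDR = 0.000276) and Cdkn1a (-1.44, FDR = 1.45e-06) were called and larger than without the covariate. The fall of Cdkn2c was also larger than without it (-3.35). P6 mice (4.75 to 6.47) and 8-week mice (1.83 to 3.43) had no marker level in common. This fit compares those ages only by extending the relation seen within them. Overlap was thin in the other comparisons as well. Of the P6 mice only males 1, 5 and 6 (4.96, 4.75 and 5.42) lay in the P15 range (2.83 to 5.60). Of the P15 mice only males 5 and 6 (3.18 and 2.83) lay in the 8-week range.

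**Figure D2:**
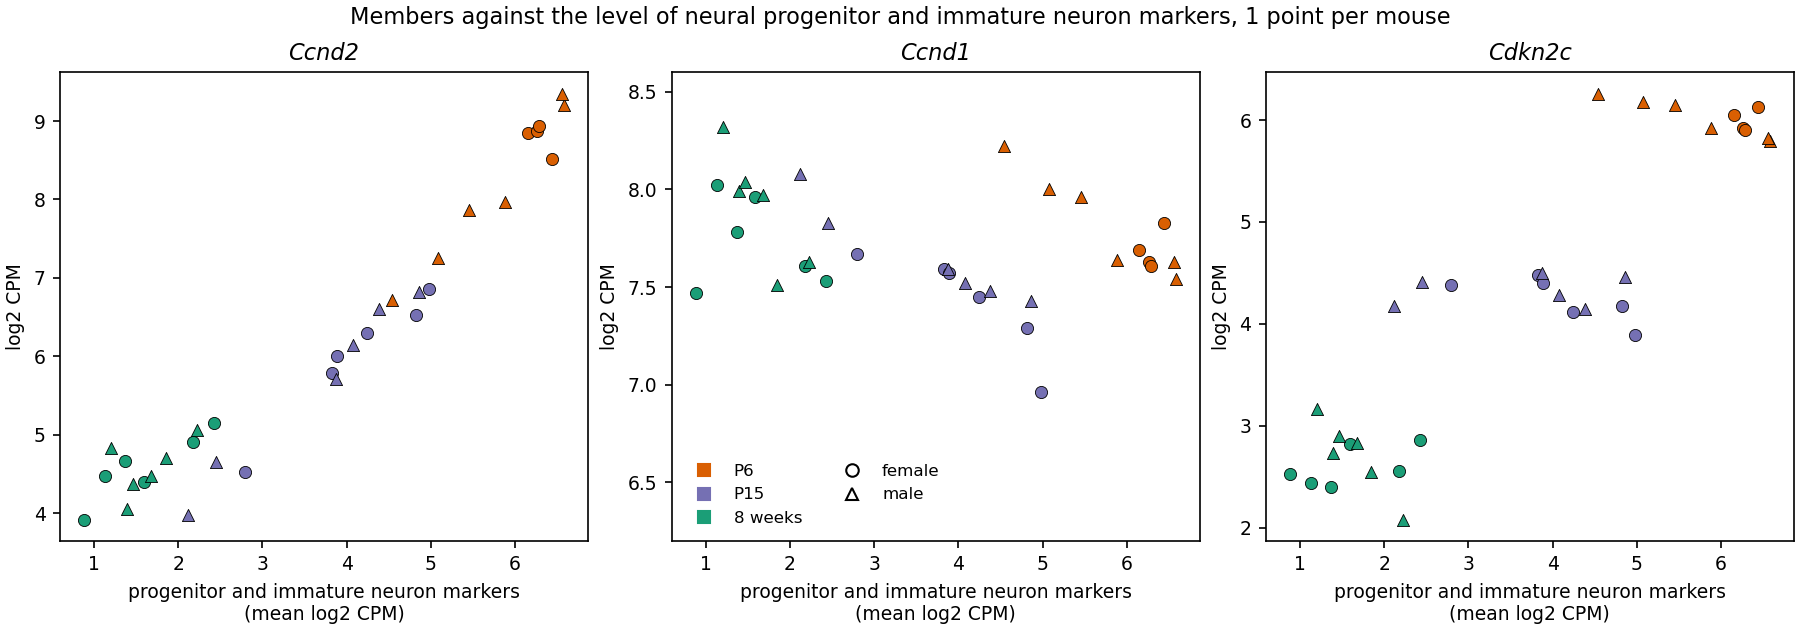
Level of Ccnd2, Ccnd1 and Cdkn2c (log2 CPM) against the mean of 9 neural progenitor and immature neuron markers (log2 CPM), with 1 point for each of 34 mice (colours, ages; circles, females; triangles, males). Ccnd2 climbs with the markers within each age (r = 0.96 at P6), Ccnd1 descends at P6 and P15, and Cdkn2c forms 3 steps by age.

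Both E-type cyclins fell in both intervals. Ccne1 (ENSMUSG00000002068, chr7:38097984-38107534, minus strand), which activates Cdk2 at the start of S phase, ranged from 12 to 16 CPM at P6 (median 13.8), 1.96 to 6.24 CPM at P15 (median 3.28) and 0.396 to 1.51 CPM at 8 weeks (median 1). No 2 ages overlapped. The log2FC was -2.07 ± 0.171 by P15 (FDR = 5.25e-12), a further -1.78 ± 0.173 by 8 weeks (FDR = 8.7e-10) and -3.85 ± 0.185 in all (FDR = 2.83e-18), a 14.4-fold fall. The lowest 8-week library held 12 Ccne1 fragments.

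Ccne2 (ENSMUSG00000028212, chr4:11191351-11204779, plus strand), its paralog, ranged from 4.72 to 11 CPM at P6 (median 7.5), 0.675 to 2.89 CPM at P15 (median 1.72) and 0.182 to 0.905 CPM at 8 weeks (median 0.588). P6 lay above both later ages, which overlapped each other. The falls were -1.96 ± 0.235 by P15 (FDR = 1.72e-08), -1.66 ± 0.242 from P15 to 8 weeks (FDR = 1.81e-06) and -3.62 ± 0.255 from P6 to 8 weeks (FDR = 5.23e-14). Around the age and sex means Ccne1 ran with oligodendrocyte progenitor (r = 0.63 over 34 mice, 0.54 without P15 male 1) and neuron markers (0.52 and 0.45), both of which had lower means at 8 weeks than at P6. For Ccne2 these values were -0.02 and 0.20 with the former list and 0.19 and 0.37 with the latter. These are descriptions. The covariate fit held neuron and progenitor and immature neuron markers but no oligodendrocyte progenitor markers. The part of oligodendrocyte progenitors in the falls was not tested, and that of neurons was not tested beyond that fit. With as few as 5 fragments in an 8-week library, levels of single adult mice are imprecise. The balance of the pair moved little, since Ccne1 made up 71.5% ± 6 of the E-type RPKM at P6 (SD, n = 10), 70.6% ± 10.6 at P15 (n = 12) and 68.7% ± 10.4 at 8 weeks (n = 12).

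The 2 partner kinases of the D-type cyclins parted. Cdk4 (ENSMUSG00000006728, chr10:127063534-127067920, plus strand) ranged from 208 to 278 CPM at P6 (median 257), 67.1 to 137 CPM at P15 (median 84.5) and 52.6 to 80.7 CPM at 8 weeks (median 59.1). Every P6 mouse was above every later mouse, and P15 overlapped 8 weeks. Its log2FC was -1.50 ± 0.079 by P15 (FDR = 1.08e-16), -0.53 ± 0.075 from P15 to 8 weeks (FDR = 1.1e-06) and -2.03 ± 0.080 in all (FDR = 1.38e-20), a 4.09-fold fall of which most had occurred by P15. At P6 it rose with the progenitor marker mean (r = 0.85, n = 10, permutation p = 0.0012, adjusted 0.0063; rho 0.82, p = 0.0058, adjusted 0.029; r = 0.83 without the 2 farthest mice), whereas r was 0.13 in the 9 P15 mice (exact permutation p = 0.81, adjusted 0.9) and -0.41 at 8 weeks (permutation p = 0.2, adjusted 0.39).

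Cdk6 (ENSMUSG00000040274, chr5:3341485-3531008, plus strand), the other partner kinase, ranged from 88.5 to 147 CPM at P6 (median 112), 37.8 to 113 CPM at P15 (median 99.8) and 51.7 to 105 CPM at 8 weeks (median 69.9). The 3 ages overlapped, and the lowest P15 value was that of P15 male 1. From P6 to 8 weeks it fell by 0.62 ± 0.138 on the log2 scale (FDR = 0.000177), a 1.54-fold fall. The change by P15 was -0.27 ± 0.139 (FDR = 0.0892) and that from P15 to 8 weeks -0.35 ± 0.131 (FDR = 0.0286). The change by P15 was called without TMM scaling (-0.40, FDR = 0.0144) and with the neural marker covariate (-0.59, FDR = 0.00376). That from P15 to 8 weeks was not called with only those mice in the fit (-0.33, FDR = 0.0623), and was -0.45 (FDR = 0.00136) without P15 male 1 and -0.78 (FDR = 0.00175) with the covariate. Around the age and sex means Cdk6 ran against oligodendrocyte progenitor markers (r = -0.71 over 34 mice, a description). P15 male 1 had the lowest Cdk6 and the highest such markers at P15, and r without it was -0.60.

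Cdk6 took a larger share of the pair. It made up 10% ± 2.31 of the summed Cdk4 and Cdk6 RPKM at P6 (SD, n = 10), 20.2% ± 5.33 at P15 (n = 12) and 21.9% ± 5.63 at 8 weeks (n = 12). Cdk4 remained the more abundant kinase per length in every mouse, with a lowest share of 68.9%. In raw counts, which favour the longer Cdk6, its share was 32.1%, 51.2% and 53.9% at the same ages.

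**Figure D3:**
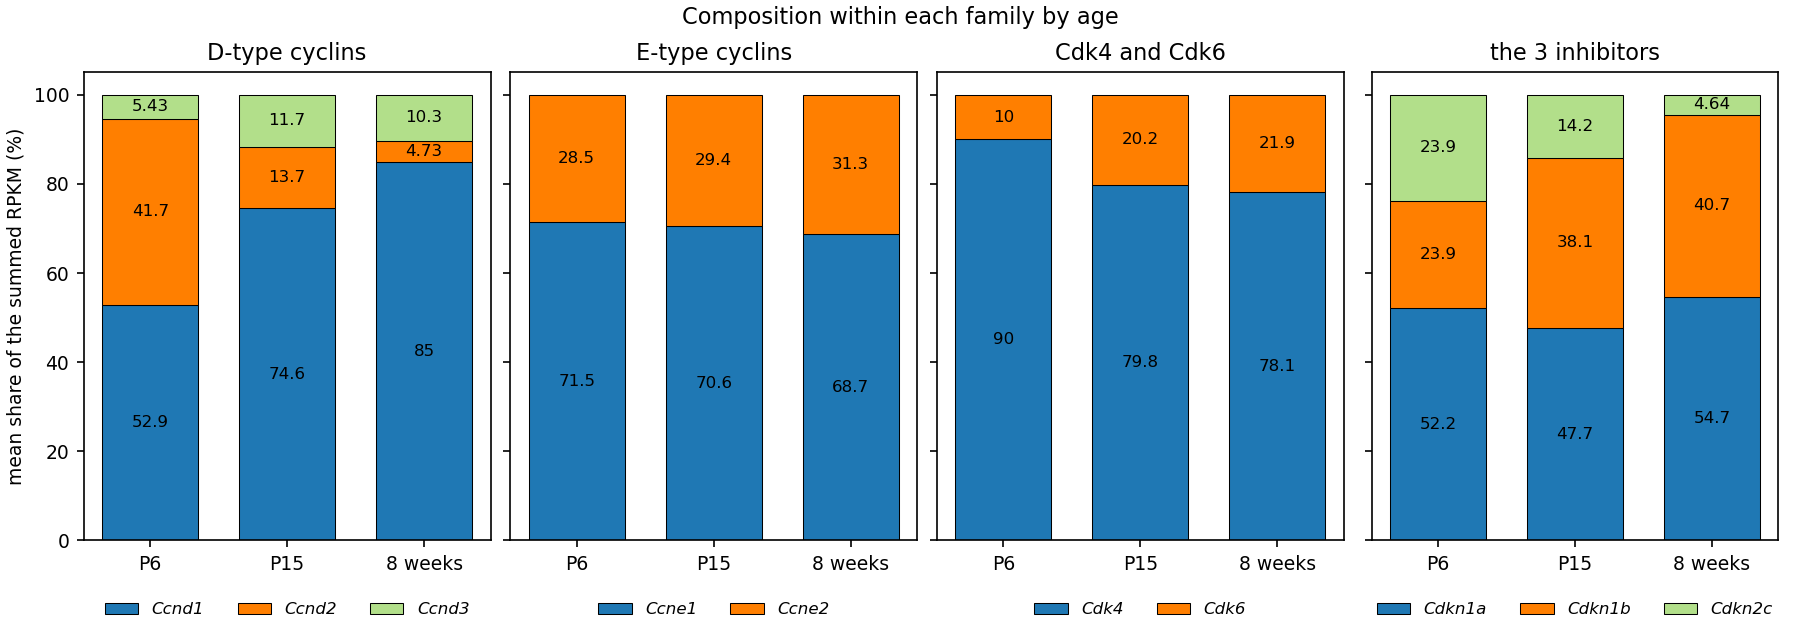
Mean share of each gene in the summed RPKM of its family (%, bars from 0) at P6 (n = 10), P15 and 8 weeks (n = 12 each). Ccnd1 grows from 52.9% to 85% of the D-type cyclins, the E-type pair keeps its balance, and Cdkn2c shrinks from 23.9% to 4.64% of the inhibitors.

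The inhibitors followed 3 courses. Cdkn2c (ENSMUSG00000028551, chr4:109660876-109667189, minus strand), the INK4-family inhibitor, fell with the E-type cyclins and not against them. It ranged from 55.3 to 76.3 CPM at P6 (median 63.4), 14.8 to 22.6 CPM at P15 (median 20.1) and 4.16 to 8.86 CPM at 8 weeks (median 6.21), and no 2 ages overlapped. The log2FC was -1.72 ± 0.097 by P15 (FDR = 5.05e-16), -1.63 ± 0.095 from P15 to 8 weeks (FDR = 4.2e-15) and -3.35 ± 0.102 in all (FDR = 1.58e-23), a 10.2-fold fall. Within P6 it declined as progenitor markers climbed (r = -0.81, n = 10, permutation p = 0.0033, adjusted 0.011; rho -0.84, p = 0.0038, adjusted 0.023; r = -0.60 without the 2 farthest mice), the opposite sign to Ccnd2. It was not called in the 9 P15 mice (r = -0.60, exact permutation p = 0.089, adjusted 0.22) or at 8 weeks (r = -0.17, permutation p = 0.6, adjusted 0.78).

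Cdkn1a (ENSMUSG00000023067, chr17:29090976-29100727, plus strand), the p21 gene, fell early and then held its level. It ranged from 146 to 252 CPM at P6 (median 181), 67.1 to 115 CPM at P15 (median 90.7) and 77.8 to 121 CPM at 8 weeks (median 103). Every P6 mouse was above every later mouse, and the later ages overlapped. The fall by P15 was -1.07 ± 0.105 (FDR = 2.46e-10), that by 8 weeks -0.90 ± 0.105 (FDR = 4.53e-09), and the change between these ages 0.17 ± 0.099 (FDR = 0.15, 95% interval -0.030 to 0.375). At P6 its level ran against the progenitor markers (r = -0.83, n = 10, permutation p = 0.0033, adjusted 0.011; rho -0.59, p = 0.081, adjusted 0.22), and r without the 2 farthest mice was -0.42, so within P6 the relation rests on them. It was not called in the 9 P15 mice (r = 0.34, exact permutation p = 0.35, adjusted 0.56) or at 8 weeks (r = -0.31, permutation p = 0.33, adjusted 0.55). The 3 P15 mice that lay apart, with the lowest markers, had Cdkn1a at 94.1, 97.6 and 115 CPM, the last the highest of that age. Around the age and sex means over all 34 mice r was -0.50, and -0.65 without P15 male 1 (descriptions).

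Cdkn1b (ENSMUSG00000003031, chr6:134920401-134925513, plus strand), the p27 gene, changed least of the inhibitors. It ranged from 67.0 to 157 CPM at P6 (median 111), 78.4 to 117 CPM at P15 (median 85.4) and 78.6 to 119 CPM at 8 weeks (median 94.7), all overlapping. It was lower at P15 than at P6 by -0.30 ± 0.112 (FDR = 0.0231), a call lost with only the P6 and P15 mice in the fit (-0.27, FDR = 0.0636) and with the neural marker covariate (-0.04, FDR = 0.824). At 8 weeks against P6 it was -0.22 ± 0.112 (FDR = 0.076, 95% interval -0.449 to 0.008), which was called without TMM scaling (-0.37, FDR = 0.0148), without P15 male 1 (-0.25, FDR = 0.0474), without P6 female 5 (-0.28, FDR = 0.0415) and with at least 10 counts in every mouse (-0.26, FDR = 0.0498). With the covariate it was 0.37 (FDR = 0.213). Against P15 the 8-week level differed by 0.08 ± 0.106 (FDR = 0.575), or by 0.41 (FDR = 0.0377) with the covariate. Its P6 level rose with progenitor markers (r = 0.91, n = 10, permutation p = 0.00023, adjusted 0.0023; rho 0.90, p = 0.00094, adjusted 0.007; r = 0.92 without the 2 farthest mice). The relation was not called in the 9 P15 mice (r = 0.54, exact permutation p = 0.14, adjusted 0.29) or at 8 weeks (r = 0.14, permutation p = 0.66, adjusted 0.82). Around the age and sex means Cdkn1b ran against the erythroid markers (r = -0.70 over 34 mice, -0.71 without P15 male 1, descriptions). All 5 were higher at P15 than at P6. All 5 were lower at 8 weeks than at P15, an interval in which Cdkn1b was not called. The part of these cells in the lower P15 level was not tested.

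Among the 3 inhibitors, Cdkn2c held 23.9% ± 2.12 of the summed RPKM at P6 (SD, n = 10), 14.2% ± 2.2 at P15 (n = 12) and 4.64% ± 0.916 at 8 weeks (n = 12). The share of Cdkn1b went from 23.9% to 38.1% and 40.7%, and Cdkn1a from 52.2% to 47.7% and 54.7%.

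**Figure D4:**
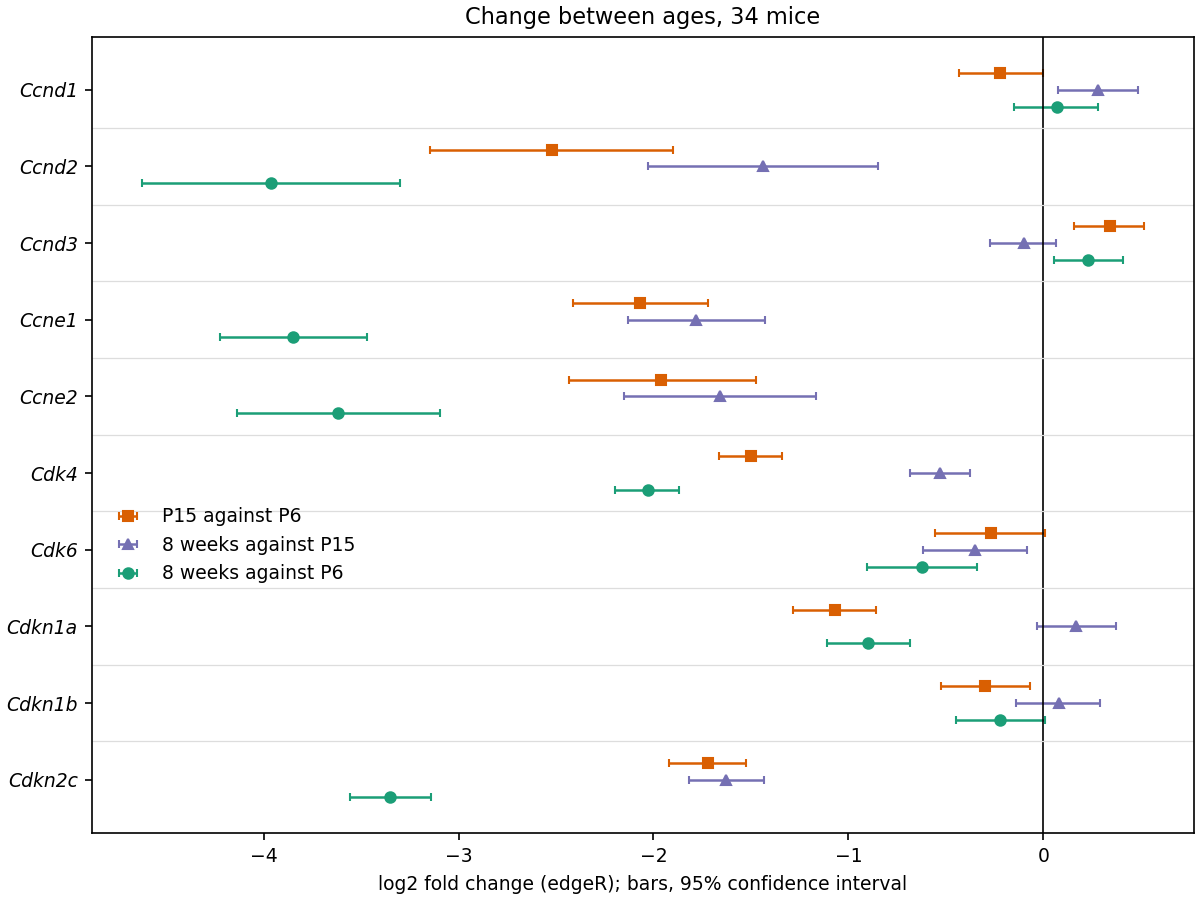
Log2 fold change of each member for P15 against P6, 8 weeks against P15 and 8 weeks against P6 (edgeR, 34 mice; bars, 95% confidence intervals; vertical line, no change). Ccnd2, Ccne1, Ccne2, Cdk4 and Cdkn2c lie between -2.03 and -3.96 for 8 weeks against P6, while Ccnd1 and Cdkn1b have intervals that reach 0.

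Ranked by RPKM, the set was led by Cdk4 at P6 and by Ccnd1 afterwards. At P6 the mean was 75.8 RPKM for Cdk4, 52.9 for Cdkn1a, 47.1 for Ccnd1 and 40.1 for Ccnd2, and each of these overlapped its neighbour between mice. By the median, Ccnd2 (43.8 RPKM) and Ccnd1 (43.2 RPKM) stood in the reverse order. Cdkn2c (24.1) and Cdkn1b (23.8) overlapped each other and lay above Cdk6 (8.29), which lay above Ccne1 (5.24) and Ccnd3 (4.89), and Ccne2 (2.1) came last. At P15 Ccnd1 (40.2) was followed by Cdk4 (27.2), Cdkn1a (24.9) and Cdkn1b (19.7), each overlapping the gene before it, and every Cdkn1b value lay above those of the next gene, Cdkn2c (7.3). At 8 weeks Ccnd1 (48.7 RPKM, lowest mouse 37.7) lay above every value of the next gene, Cdkn1a (28.1, highest mouse 34). The 8-week order went on with Cdkn1b (20.7), Cdk4 (18.7), Ccnd3 (5.8), Cdk6 (5.22), Ccnd2 (2.62), Cdkn2c (2.36), Ccne1 (0.367) and Ccne2 (0.163), with gaps between Cdk4 and Ccnd3 and between Cdkn2c and Ccne1.

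No member was called different between sexes at any age, which does not show that the sexes were equal. With edgeR, 0 of 10 members were called in males against females at P6, P15 or 8 weeks, where 0.0511%, 0.0681% and 0.114% of all genes were called, and DESeq2 and limma-voom also called 0. At an unadjusted p under 0.05 edgeR gave 0, 1 and 0 members, DESeq2 0, 2 and 0, and limma-voom 0, 2 and 0. Over all 17612 genes edgeR gave 1250, 3200 and 518 at this level, so that the share of members at P15 was near that of all genes. The 1 gene was Cdk4 at P15, with 84.2 to 137 CPM in males (median 89.4) and 67.1 to 84.8 CPM in females (median 82), a log2FC of 0.27 ± 0.106 (FDR = 0.252). Without P15 male 1, the highest mouse, it was 0.17 ± 0.0971 (FDR = 0.453).

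The interaction of sex and age, which asks whether the change with age differed between males and females, was likewise not called for any member in any of 3 comparisons. All 3 tools gave 0 members, and edgeR called 0% of all genes (3593, 898 and 601 genes had an unadjusted p under 0.05 for P15 against P6, 8 weeks against P6 and 8 weeks against P15). At an unadjusted p under 0.05, Cdk4 (0.47 ± 0.158, FDR = 0.152), Cdk6 (-0.69 ± 0.280, FDR = 0.175) and Ccnd3 (0.41 ± 0.175, FDR = 0.196) appeared in P15 against P6 with each tool, and 0 members in the other comparisons. Without P15 male 1 these interactions were 0.38, -0.50 and 0.32 (FDR of 0.242, 0.306 and 0.338). For Ccnd2 the spread between P6 males left a wide interval on the sex difference at P6, -1.324 to 0.475 on the log2 scale.

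Beyond the members, every S phase and mitosis gene listed was lower at 8 weeks than at P6. For lists of other genes, counts of called genes from P6 to 8 weeks and the median log2FC are given, beside the median of 0.038 over all genes, of which 37.8% were higher and 36.6% lower. All 10 G2 and mitosis genes were lower (median -5.45), such as Ccnb1, the mitotic cyclin, from 62.6 ± 5.24 CPM (SD, n = 10) to 0.808 ± 0.381 (n = 12). All 12 S phase genes that E2F drives were lower (median -3.07), among them Rrm2, a subunit of ribonucleotide reductase (-5.50, FDR = 1.47e-25), Cdc6, which loads the replicative helicase (-4.42, FDR = 2.9e-20), and Mcm5, a part of that helicase (-3.94, FDR = 1.55e-22). The members' median of -1.47 was a smaller fall than that of either list.

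Among 13 pocket proteins and E2F factors, 9 were lower and 2 higher, and 2 were not called (median -0.98). The largest falls were those of E2f7 (-5.55, FDR = 1.39e-18) and E2f8 (-5.00, FDR = 2.04e-21), both repressors of E2F targets, and of E2f1, an activator (-4.19, FDR = 2.46e-23). The retinoblastoma gene Rb1 was at 57.4 ± 11.6 CPM (SD, n = 10) at P6 and 65.5 ± 18.1 CPM (n = 12) at 8 weeks (FDR = 0.15), and E2f4 had a log2FC of 0.03 (FDR = 0.692). The 2 that rose, E2f3 (0.91, FDR = 7.71e-10) and Rbl2, the gene of p130 (0.36, FDR = 0.000139), are named after their values were seen.

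Of 5 other CDK inhibitors, 3 were lower at 8 weeks than at P6 (median -1.23): Cdkn3, a phosphatase that acts on CDKs (-4.52, FDR = 1.8e-18), Cdkn2a, the Ink4a and Arf locus (-2.95, FDR = 9.65e-13), and Cdkn2d (-1.23, FDR = 7.82e-12). Cdkn1c, the p57 gene, was at 12.7 ± 2.53 CPM at P6 and 13 ± 2.88 CPM at 8 weeks (log2FC 0.01, FDR = 0.924), and Cdkn2b had a log2FC of 0.40 (FDR = 0.209). In the other age comparisons Cdkn2b was higher at P15 than at P6 (0.71, FDR = 0.034), and Cdkn1c was lower at P15 than at P6 (-0.55, FDR = 0.000223) and higher at 8 weeks than at P15 (0.56, FDR = 0.000189).

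Of 8 other G1/S kinase partners and activators tested (Cdk3 was listed but not analysed here), 7 were lower and 1 was higher (median -0.60). Ccna2, the S phase cyclin, fell from 83.6 to 1.76 CPM (-5.57, FDR = 2.48e-24), and Cdc25a, the phosphatase that activates Cdk2, fell by 1.46 on the log2 scale (FDR = 9.7e-18). Ccna1, a germ line cyclin, went from 0.776 CPM to 0.0362 CPM, under the floor of 3 counts. The gene that rose was Cdk7, of the CDK-activating kinase (0.37, FDR = 0.000568), named after its value was seen.

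In the list of 12 genes that turn over G1 cyclins and inhibitors, 7 were lower, 4 higher and 1 not called (median -0.50). Those that fell most were Cks1b (-4.37, FDR = 6.1e-22), Cks2 (-2.02, FDR = 3.37e-18) and Skp2 (-1.69, FDR = 7.28e-16). Cks1b and Skp2 act together in the ubiquitin ligase that marks p27 for destruction. Fbxw7, which targets cyclin E, was not called (0.08, FDR = 0.506).

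Of 15 p53 targets (Trp53 itself included), 5 were higher, 4 lower and 6 not called from P6 to 8 weeks (median -0.14), beside 74.4% called among all genes. Btg2, an antiproliferative gene, rose from 461 to 1963 CPM (2.11, FDR = 1.38e-15), and Sesn1, a stress sensor, rose by 1.31 (FDR = 4.59e-13). Eda2r, a receptor gene, went from 2.86 to 0.0756 CPM, under the floor. Trp53 (-0.12, FDR = 0.128) and Ccng1 (-0.23, FDR = 0.093) were not called. From P6 to P15, when Cdkn1a fell, 4 were higher, 5 lower and 6 not called. Of all genes 30.4% were higher and 31.4% lower in that interval (61.8% called in all).

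**Figure D5:**
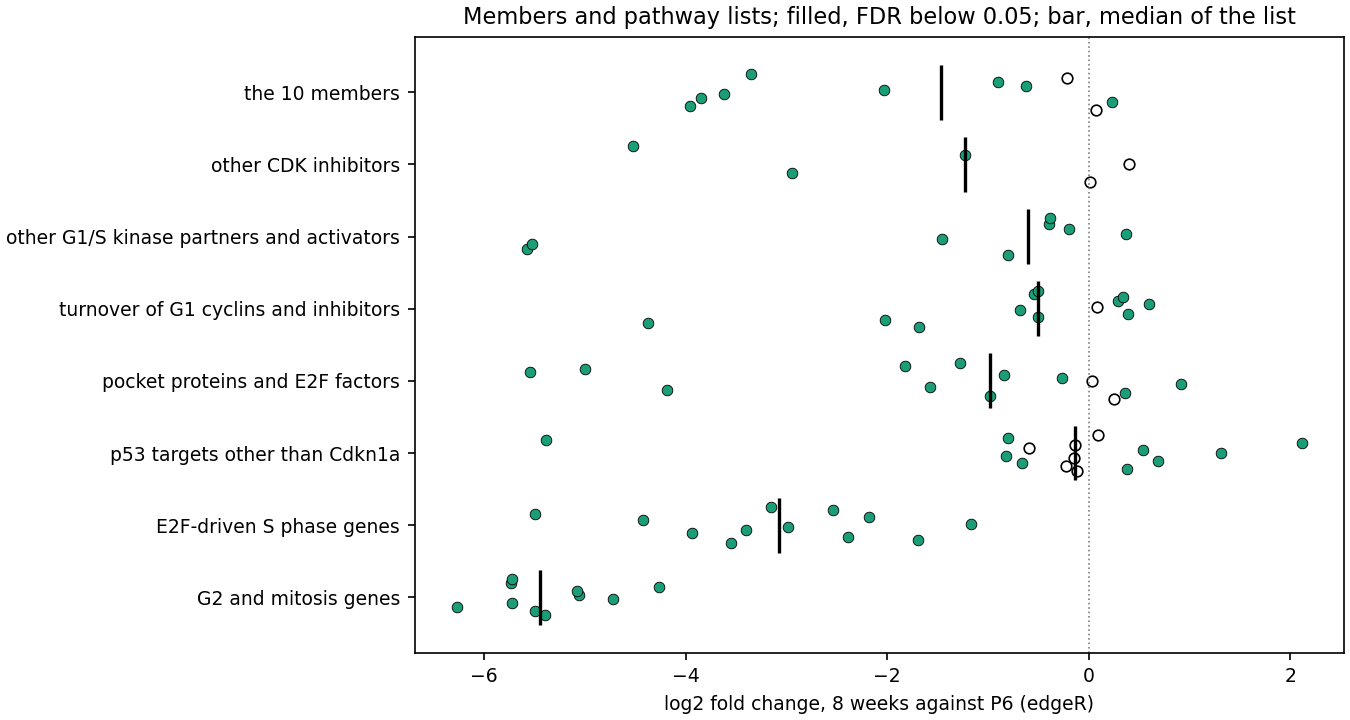
Log2 fold change from P6 to 8 weeks of the 10 members and of the genes of 7 pathway lists (edgeR; filled points, FDR below 0.05; open points, not called; bars, list medians). G2 and mitosis genes centre on -5.45 and S phase genes on -3.07, while p53 targets lie on both sides of 0.

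The genes whose log2 CPM ran most like each member over the 34 mice were sought among all tested genes, as a description. For Ccne1 they were H2afx, a histone variant of the DNA damage response (Pearson's r = 0.981), and Cdc25b, a phosphatase of mitotic entry (0.978). Those for Ccne2 were Kif15 (0.960), a mitotic kinesin, and Pclaf (0.958), a PCNA-binding factor. Cdkn2c was closest to Asf1b (0.992), a histone chaperone, and Tcf19 (0.990). Cdk4 was nearest to Sae1 (0.994), of the SUMO-activating enzyme, and Erh (0.992).

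Nearest to Ccnd2 were Tead2 (0.985), a transcription factor of the Hippo pathway, and Rbfox2 (0.982), a splicing factor. The other members were matched by Tmed2 (0.897) and Cap1 (0.886) for Ccnd1, Entpd6 (0.909) and Sdf2 (0.886) for Ccnd3, and Wdr26 (0.921) and Nt5c2 (0.908) for Cdk6. For the inhibitors they were Tubb6 (0.959) and Pim1 (0.955) for Cdkn1a, and Kdm5b (0.862) and Zfp608 (0.818) for Cdkn1b. Age differences enter all of these values.

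In P6 female 6, left out of the values above, the D-type cyclins were at 136 (Ccnd1), 343 (Ccnd2) and 49.3 CPM (Ccnd3), and the E-type cyclins at 10.6 (Ccne1) and 5.65 CPM (Ccne2). Cdk4 was at 190 CPM and Cdk6 at 64.8 CPM, and the inhibitors at 80.1 (Cdkn1a), 112 (Cdkn1b) and 35.9 CPM (Cdkn2c). Ccnd1, Ccne1, Cdk4, Cdk6, Cdkn1a and Cdkn2c were below the range of the 10 other P6 mice. With this mouse added back, none of the 30 age calls of the members changed.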

How the data were processed

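Raw counts per gene were deposited by the authors for 35 mice, with no filter or normalisation. Per the study's methods, directional libraries were sequenced as paired ends, aligned to GRCm38/mm10 with STAR and counted by strand with featureCounts. The annotation release is not given in the sources used here, and symbols, positions and exon lengths were taken from GENCODE M21, in which 55141 of 55401 identifiers had a symbol. Strand-aware counting keeps genes antisense to members apart.

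The filter kept genes that reached 0.5 CPM in 5 or more mice. Library sizes were scaled by TMM, and the 6 age by sex means were fitted with edgeR 4.0.16 (glmQLFit, robust; glmQLFTest, two-sided) in R 4.3.3. FDR is the Benjamini-Hochberg adjusted p over all 17612 genes, and age contrasts average the sexes. SE is the log2FC divided by the square root of F. CPM and RPKM use TMM-scaled sizes, and log2 CPM adds a prior count of 2. Correlations used 100000 permutations, or all orderings for 9 mice. The scripts were tested on simulated data.

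Alternatives were limma 3.58.1 (voom), DESeq2 1.42.0, glmTreat and TREAT at 2-fold, other scaling and filters, fits on 2 ages only, a fit by age with no sex term, blocking on mouse number, and omission of single P6 females. The neural marker covariate and the fit without P15 male 1 were added after the data were seen. Floors cover counting error alone, because PCR copies cannot be told from molecules.

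Members and lists were chosen with earlier results of these data known. Genes named from a pathway list were up to 3 with the largest change from P6 to 8 weeks among those called and up to 2 not called. A protein comparison was planned but not run. No sequencing batch is given in the labels, nor whether mice were littermates.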

Additional observations from a re-analysis of the deposited data

Results flagged for a closer look

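Within each of the 6 age and sex groups, the highest or lowest mouse was set against the rest by Dixon's criterion, in 60 group and member combinations. Chance alone gives about 1 in 20, or 3.0 of 60, and 4 exceeded it.

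P15 male 1 was high for 2 of them. Cdk4 was at 137 CPM there (84.2 to 92.5 in the other P15 males) and Ccnd3 at 84.1 CPM (48.2 to 58.5). This library also had the highest oligodendrocyte progenitor and mature oligodendrocyte marker means of the P15 mice, whose part in these values was not tested.

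P15 female 2 was low for Cdk4, at 67.1 CPM (79.3 to 84.8 in the others), and had the highest neuron and progenitor marker means of its age. The 8-week male 4 was high for Cdk4, at 80.7 CPM (52.6 to 63.1), and had the highest lymphocyte and neutrophil (3.23 log2 CPM) and erythroid (9.18) marker means of the 8-week mice, whose part was not tested.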

How the results depend on the processing

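The 30 age changes (10 members in 3 comparisons) kept direction and call with all 35 mice, DESeq2, DESeq2 size factors, limma-voom, no filter on low counts and age without sex. No higher call could pass a 2-fold threshold, since each was a smaller change (log2FC of 0.34, 0.23 and 0.28). With glmTreat and with limma-voom TREAT, 0 members were higher in each of the 3 comparisons. Members lower from P15 to 8 weeks went from 6 to 3 and 2. Of all 17612 genes, 540 and 261 were lower in that interval and 211 and 137 higher. Higher members from P6 to 8 weeks numbered 0 without TMM scaling and 0 with the neural marker covariate, where 5676 and 4458 of all genes were higher. Ccnd3, the member called in the main fit (0.23), was at 0.09 (FDR = 0.362) without TMM scaling. With the covariate its log2FC was larger, at 0.38, but not called (FDR = 0.12). With each P6 female left out higher members numbered between 0 and 1, where between 6163 and 6466 genes were higher. From P15 to 8 weeks higher members numbered 2 with the covariate and 0 without P15 male 1, where 3502 and 3669 genes were higher. The covariate reversed Ccnd1 (-0.85 from P6 to 8 weeks, -0.24 from P15 to 8 weeks) and Ccnd2 (0.73 from P15 to 8 weeks). The sign also changed, with no call in either fit, for Cdkn1b from P6 to 8 weeks (-0.22 to 0.37). So did that of Cdkn1a from P15 to 8 weeks (0.17 to -0.14). The cause was not tested.

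Requiring 10 counts in every mouse left 27 changes, since Ccne2 dropped out. DESeq2 called 147 genes in the interaction of sex with P15 against P6, none of them a member, where edgeR called 0 (3593 at an unadjusted p under 0.05). Shares of raw counts in place of RPKM moved 20 of 30 shares.

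Mice of different groups share numbers only. Over 32 same-numbered pairs the median correlation of deviations was 0.0789 (range -0.299 to 0.566), and 13 exceeded 0.1. With the replicate block the log2FC of Ccnd2 from P6 to P15 was -2.53, and 7, 7 and 6 members were lower as before. Sex within an age could not be fitted with a block nested in sex.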
